A study of Homo sapiens with 6 samples.

Results

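A set of 8 genes of the TSC complex and the mTOR kinase complexes was followed in the colorectal cancer line Caco-2, which is of human origin. The genes were TBC1D7, TSC1, TSC2, RHEB, MTOR, RPTOR, RICTOR and DEPTOR, 8 of the 19775 genes that the arrays measured with a probe set of 1 gene symbol. Their 23 probe sets, of 54675 in the table, were those whose only annotated symbol was one of the 8. The set was made with the difference of TBC1D7 between the groups already known, so the differences of all 8 are given as descriptions, and counts of calls among them are not read as results. Cells had been transfected with an siRNA against SDC1, which encodes the heparan sulfate proteoglycan syndecan-1 (3 arrays). The others had received a negative control siRNA (3 arrays). The time between transfection and harvest is not given in the sources used here. Nothing says whether the replicates came from separate cultures, so errors and p-values reflect how these arrays scattered, possibly for technical reasons. In bulk RNA, fewer cells with a transcript and less of it per cell cannot be told apart.

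TSC1 and TSC2 form, with TBC1D7 as a further subunit, a GTPase-activating complex that switches off the small GTPase RHEB. GTP-bound RHEB activates mTOR complex 1 at the lysosome, which drives protein and lipid synthesis and holds back autophagy. Loss of TSC1 or TSC2 causes tuberous sclerosis, and loss of TBC1D7 weakens the association of the complex and raises mTOR complex 1 activity. RPTOR is the defining subunit of complex 1 and RICTOR that of complex 2, which phosphorylates AKT, while DEPTOR binds both complexes and inhibits the kinase MTOR. These steps run largely through proteins and their phosphorylation, which the arrays did not measure.

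Every value below is a log2 signal set against the median that the probe set had over the 6 arrays, so that 0 is the middle of the 6 and levels of different genes could not be compared. A rough signal class (8 to 16, 4 to 8, or below 4 on the log2 scale) was read from the rounding steps the values keep. By it 6 of 10 epithelial and intestinal markers were in the highest class (CDH1, CDX1, EPCAM, KRT18, KRT19 and KRT8), and FABP1 and KRT20 were in the lowest. Of the markers of other cell types, VWF (endothelium) and COL1A1 (fibroblast) had a probe set in the highest class, 0 of 3 measured leukocyte genes did, and the classes are not detection calls. SDC1 itself was lower in each SDC1 siRNA array, with 2 probe sets between -0.62 and -0.33 there and between 0.33 and 0.38 with control siRNA, and a gene difference of -0.84 ± 0.08 (standard error). Control siRNA replicate 2 stood apart: it was the array farthest from the median in 26.0% of all 54613 probe sets tested and in 10 of the 23 described here (43.5%). Of these 10, 5 measured RHEB and 4 RICTOR, and probe sets of the same gene are not independent.

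TBC1D7 was lower with SDC1 siRNA by the brighter of its 2 probe sets and not measurably so by the dimmer one. Probe set 223461_at, in the class from 4 to 8, was at -0.43, -0.31 and -0.21 in SDC1 siRNA replicates 1, 2 and 3. It was at 0.34, 0.21 and 0.29 in control siRNA replicates 1, 2 and 3. All 3 SDC1 siRNA arrays lay below all 3 control siRNA arrays, with no value between -0.21 and 0.21. The means were -0.32 ± 0.11 with SDC1 siRNA and 0.28 ± 0.06 with control siRNA (SD, n = 3 each). The difference was -0.60 ± 0.09 (standard error) with a 95% interval from -0.80 to -0.39, which is a level 0.661 times that of the control. Leaving out each array in turn gave -0.65 to -0.54. As a gene, represented by 223461_at alone, TBC1D7 was 27th of 19775 by the size of its difference. That difference was known when the set was made, so the rank is a description. SDC1, the siRNA target, was 4th.

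The other TBC1D7 probe set, 1563839_at, was in the class below 4. It was at 0.16, -0.15 and -0.0075 in SDC1 siRNA replicates 1, 2 and 3, and at 0.0075, 0.28 and -0.059 in control siRNA replicates 1, 2 and 3. The groups overlapped in part: the highest value belonged to control siRNA replicate 2 and the lowest to SDC1 siRNA replicate 2. Its difference was -0.075 ± 0.12, with a 95% interval from -0.35 to 0.20. Without control siRNA replicate 2 it was 0.027, and without SDC1 siRNA replicate 2 it was 0.0019. The mean of both probe sets was -0.34 ± 0.07, between the 2 and a measure of neither. Which transcripts each probe set reads was not analysed here.

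**Figure D1:**
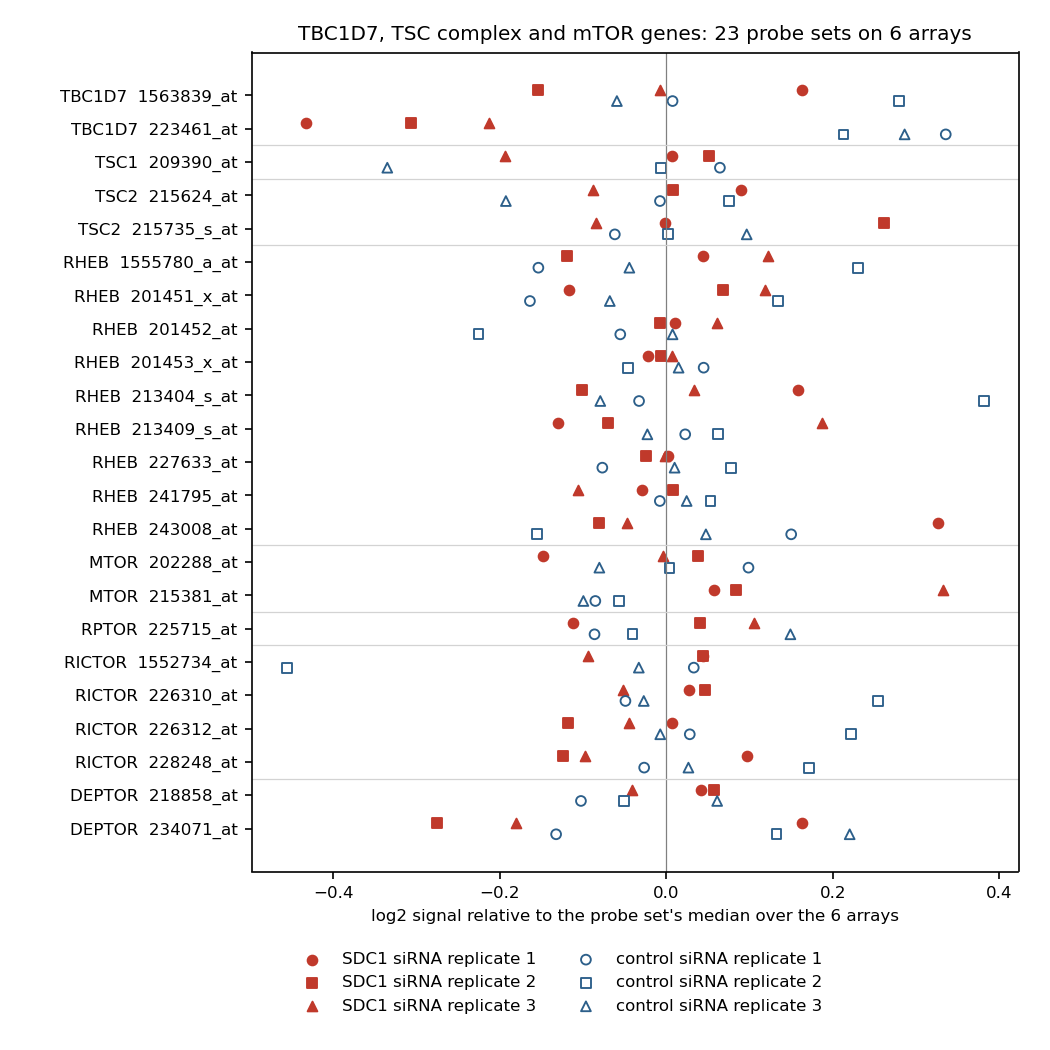
Relative log2 signal (horizontal axis) of the 23 probe sets of the 8 genes, with 3 SDC1 siRNA arrays (filled) above 3 control siRNA arrays (open) in each row and symbols for the replicate. The groups are apart in TBC1D7 223461_at, where SDC1 siRNA arrays sit from -0.43 to -0.21 and control siRNA arrays from 0.21 to 0.34, and in MTOR 215381_at, and they overlap in the other 21 probe sets.

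The promoter of TBC1D7 is shown because its transcript is the one that differed most among the 8. The 250 bases before the annotated start, from RefSeq on GRCh38.p14, are chr6:13328538-13328787 on the minus strand. Capitals mark the longest stretch that reads the same on both strands, which has the letters of the binding motif of the transcription factor NRF1.

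TBC1D7: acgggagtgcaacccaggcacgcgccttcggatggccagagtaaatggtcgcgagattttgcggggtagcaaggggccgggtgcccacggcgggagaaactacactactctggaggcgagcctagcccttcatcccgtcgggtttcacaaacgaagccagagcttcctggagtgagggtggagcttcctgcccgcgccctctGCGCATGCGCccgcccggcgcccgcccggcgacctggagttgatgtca

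This stretch, GCGCATGCGC, lies 39 to 48 bases before the start, and it was chosen after the sequence had been read. Among the 8 genes it was found in TBC1D7 alone, and it stood in 362 of 35116 promoter windows of this length (1.03%). The palindromic E-box CACGTG, the core letters of the site that TFEB, TFE3 and MITF bind, was in the window of TSC2 alone among the 8, against 6.34% of all windows. The 2 motifs do not overlap, and a match describes letters, not a bound site. The measured genes next to TBC1D7 on the chromosome, a choice made after seeing the data, did not pass the test used below for pathway genes. PHACTR1, a regulator of phosphatase 1 and actin, was at -0.10 ± 0.08 (limma adjusted p = 0.701) and GFOD1 at 0.051 ± 0.09 (limma adjusted p = 0.893).

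The partners of TBC1D7 in the TSC complex had overlapping groups. TSC1, which encodes hamartin, the scaffold that recruits TBC1D7, was measured by 1 probe set in the highest class. It was at 0.0068, 0.051 and -0.19 in SDC1 siRNA replicates 1, 2 and 3, and at 0.064, -0.0068 and -0.34 in control siRNA replicates 1, 2 and 3. Replicate 3 was the lowest array of each group, and the SDC1 siRNA range lay within the control siRNA range. The difference was 0.047 ± 0.12 (standard error; 95% interval from -0.24 to 0.33), and it was -0.074 without control siRNA replicate 3.

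TSC2 encodes tuberin, which carries the GTPase-activating domain for RHEB. Its probe set 215735_s_at, in the class from 4 to 8, was at -0.0018, 0.26 and -0.085 in SDC1 siRNA replicates 1, 2 and 3, against -0.062, 0.0018 and 0.097 in the control siRNA replicates. One SDC1 siRNA array was above all others, and the other two lay within or just below the control siRNA range. The difference was 0.046 ± 0.11, and the second probe set, in the lowest class, gave 0.045 ± 0.10.

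RHEB, the GTPase that the complex acts on, was covered by 9 probe sets, 3 of them in the highest class. Their differences ran from -0.066 to 0.11, with 4 above 0 and 5 below, and the groups overlapped in each of the 9. Probe set 201453_x_at, in the highest class, had the smallest standard error, with a difference of -0.012 ± 0.08 (95% interval from -0.19 to 0.17). It was at -0.022, -0.0068 and 0.0068 in SDC1 siRNA replicates 1, 2 and 3, and at 0.045, -0.046 and 0.015 in control siRNA replicates 1, 2 and 3. All 6 arrays lay within 0.05 of the median there. Control siRNA replicate 2 was the array farthest from the median in 5 of the 9 probe sets, and in both directions: it was at 0.38 in 213404_s_at and at -0.23 in 201452_at. Without that array the 2 differences were 0.086 and 0.045, in place of -0.060 and 0.11. RHEB has processed pseudogenes, and several of its probe sets are of types (_x_at, _s_at) that can read more than 1 sequence.

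MTOR, the kinase of both complexes, had 2 probe sets in the class from 4 to 8, and only in 215381_at were the groups apart. Probe set 215381_at was at 0.057, 0.084 and 0.33 in SDC1 siRNA replicates 1, 2 and 3, and at -0.085, -0.057 and -0.10 in control siRNA replicates 1, 2 and 3. The SDC1 siRNA arrays were all higher, by a narrow gap in 2 of them and a wide one in replicate 3. The difference was 0.24 ± 0.10 (95% interval from 0.019 to 0.46), and 0.15 without SDC1 siRNA replicate 3. Probe set 202288_at was at -0.15, 0.038 and -0.0038 in SDC1 siRNA replicates 1, 2 and 3, and at 0.099, 0.0038 and -0.080 in control siRNA replicates 1, 2 and 3. Its groups overlapped, and the difference was -0.045 ± 0.09 (95% interval from -0.25 to 0.16), with no measurable direction. As a gene, the mean of both, MTOR was at 0.096 ± 0.08.

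RPTOR, which brings substrates to complex 1, was measured by 1 probe set. It was at -0.11, 0.041 and 0.11 in SDC1 siRNA replicates 1, 2 and 3, and at -0.086, -0.041 and 0.15 in control siRNA replicates 1, 2 and 3. The 2 groups covered nearly the same range, with a difference of 0.0038 ± 0.10 and a 95% interval from -0.22 to 0.23.

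RICTOR was measured by 4 probe sets, and control siRNA replicate 2 was the farthest array in all 4. Probe set 226312_at, in the highest class, was at 0.0073, -0.12 and -0.045 in SDC1 siRNA replicates 1, 2 and 3, and at 0.028, 0.22 and -0.0073 in control siRNA replicates 1, 2 and 3. Apart from the 0.22 of control siRNA replicate 2, the arrays lay close together. The difference was -0.13 ± 0.09 with all arrays and -0.063 without that one. In 226310_at and 228248_at the same array was also the highest, at 0.25 and 0.17, and the differences were -0.052 and -0.099. In the dimmest probe set, 1552734_at, it was the lowest at -0.46, and the difference there was 0.15, or -0.0021 without it.

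DEPTOR, the inhibitor of MTOR, had both its probe sets in the lowest class. Probe set 218858_at was at 0.041, 0.057 and -0.041 in SDC1 siRNA replicates 1, 2 and 3, and at -0.10, -0.051 and 0.061 in control siRNA replicates 1, 2 and 3. Probe set 234071_at spread more widely, from -0.28 to 0.16 with SDC1 siRNA and from -0.13 to 0.22 with control siRNA. The groups overlapped in both, and the differences were 0.050 ± 0.08 and -0.17 ± 0.14.

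**Figure D2:**
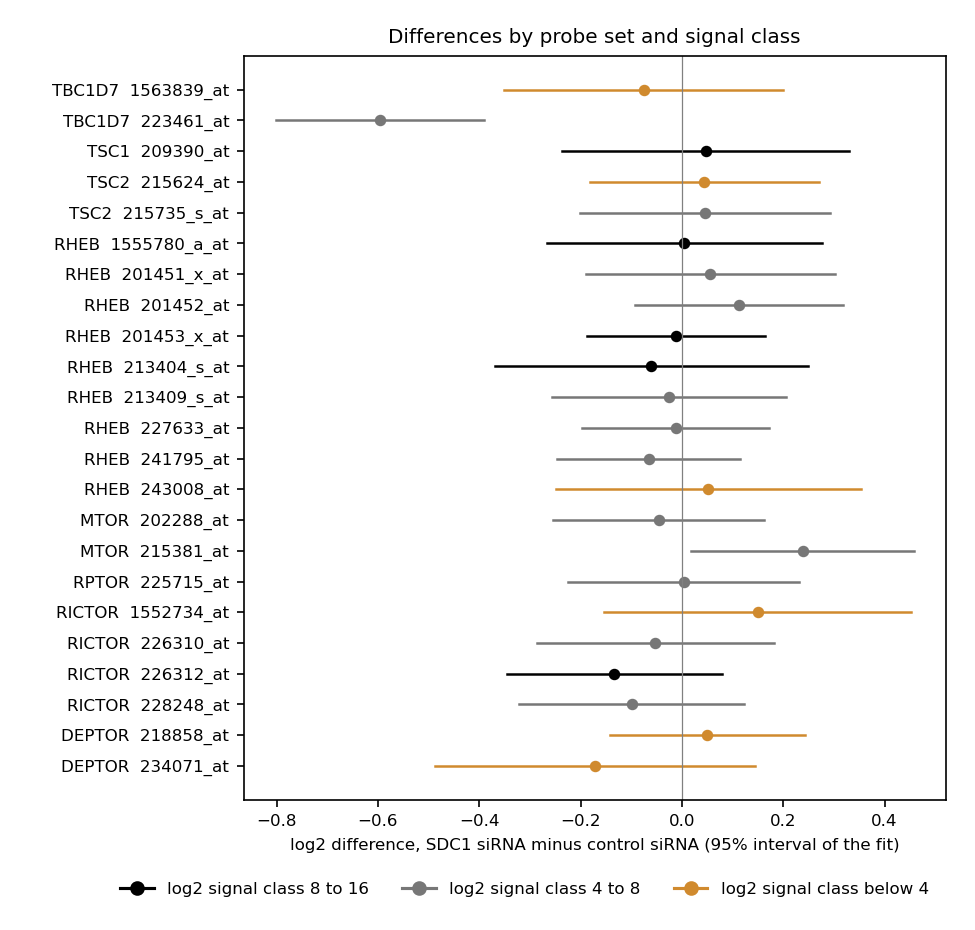
Difference of SDC1 siRNA minus control siRNA in log2 units (horizontal axis) for each of the 23 probe sets, with points for the estimate, bars for its 95% interval and colours for the signal class. TBC1D7 223461_at sits at -0.60, apart from the other 22, which run from -0.17 to 0.24 with 11 on each side of 0.

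Over all 8 genes, the 22 probe sets other than TBC1D7 223461_at ran from -0.17 to 0.24, with 11 above 0 and 11 below. The groups did not overlap in 2 of the 23 probe sets, against 14.5% of all 54613. In the limma fit over all genes with Benjamini-Hochberg adjustment, 0 of the 8 genes were past 0.05, against 5 of 19775 genes in all (0.0253%). Tested singly, 0 of the 23 probe sets and 0 of 54613 (0.0%) were past it. The genes were chosen on this same comparison, and nothing is read from these counts.

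The array values of TBC1D7 223461_at were followed most closely by 5 probe sets of other genes, by the root mean square difference over the 6 arrays, among 41089 compared. They measured SOSTDC1, which binds and blocks BMP ligands (root mean square difference 0.058), ARHGAP28 (0.062), and KCNMA1, a calcium-activated potassium channel (0.064). The last were the antisense RNA gene RBMS3-AS3 (0.070) and the non-coding RNA gene LINC03024 (0.071). SOSTDC1 213456_at was at -0.40, -0.23 and -0.28 in SDC1 siRNA replicates 1, 2 and 3, and at 0.41, 0.23 and 0.34 in control siRNA replicates 1, 2 and 3. It thus had the gap between groups that TBC1D7 showed, and its difference was -0.63 ± 0.09. The 5 differences ran from -0.63 to -0.52. The other TBC1D7 probe set was at a root mean square difference of 0.330, near the median of 0.329 over all probe sets compared. The 2 SDC1 probe sets were at 0.151 and 0.157, and the closest of the other 7 genes was RICTOR 226312_at at 0.271. These likenesses describe 6 arrays of 2 groups, and a difference of this size by itself brings a probe set close.

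**Figure D3:**
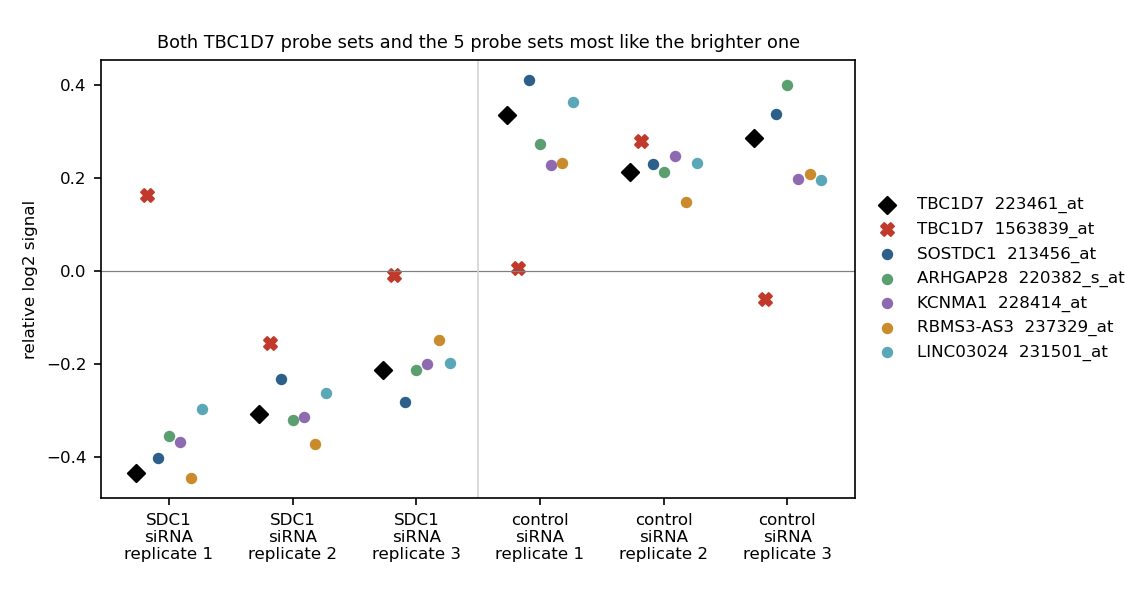
Relative log2 signal (vertical axis) on each of the 6 arrays for both TBC1D7 probe sets and for the 5 probe sets closest to 223461_at, each dot being 1 array. The 5 and TBC1D7 223461_at are below 0 in all SDC1 siRNA arrays and above 0 in all control siRNA arrays, while TBC1D7 1563839_at lies on both sides in each group.

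The rest of the pathway was read from 8 lists of other genes, of which 149 of 160 genes were analysed here. The lists were chosen with earlier results of these data known. In the limma fit with adjustment over 19775 genes, 0 of the 149 passed an adjusted p of 0.05, against 0.0253% of all genes, and the lowest adjusted p was 0.277. With so few genes called in all, a count of 0 among 149 was nearly given beforehand, and nothing is read from it. At an unadjusted p under 0.05 there were 12, with 4 higher and 8 lower with SDC1 siRNA (8.05% of the 149, against 10.6% of all genes, where 1074 had a positive and 1026 a negative difference). The median difference of the 149 was -0.019, with 62 above 0 and 87 below, and that of all genes was 0.0060, with 10300 above 0 and 9475 below. No list's median was further from 0 than -0.064. The lists' genes are named below by the lowest unadjusted p, and none of those named passed.

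Among 9 further subunits and chaperones of the mTOR complexes the median difference was -0.0056. PRR5L, a partner of RICTOR in complex 2, was at 0.075 ± 0.04 with SDC1 siRNA and -0.16 ± 0.02 with control siRNA (SD, n = 3 each), a difference of 0.23 ± 0.06 (limma adjusted p = 0.277). Its groups did not overlap. MAPKAP1, the SIN1 subunit of complex 2, was at -0.14 ± 0.07, and the chaperone cofactor TTI2 at -0.17 ± 0.09.

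Upstream of the TSC complex, the insulin, PI3K and AKT branch (16 genes) had a median of -0.049. The adaptor GRB10, which restrains insulin receptor signalling, was at 0.16 ± 0.07 (limma adjusted p = 0.469). The kinase subunit PIK3CD was at 0.18 ± 0.08, and IRS2, an insulin receptor substrate, at 0.14 ± 0.06. Among 12 genes of AMPK and of energy or stress inputs 5 were above 0 and 7 below, and the median was -0.064, the furthest from 0 of the 8 lists. The 3 with the lowest p were all AMPK subunits with values below 0. The catalytic subunit PRKAA1 was at -0.15 ± 0.18 with SDC1 siRNA and 0.12 ± 0.12 with control siRNA (SD, n = 3 each), a difference of -0.28 ± 0.11 (limma adjusted p = 0.415). PRKAB2 was at -0.17 ± 0.07 and PRKAG1 at -0.22 ± 0.11. Of the other AMPK subunits, named after their values were seen, PRKAG3 (0.19 ± 0.13) and PRKAG2 (0.0082 ± 0.07) were above 0, and PRKAA2 (-0.15 ± 0.09) and PRKAB1 (-0.11 ± 0.07) below.

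In the lysosomal amino acid branch, 12 genes of the Rag GTPases, Ragulator and folliculin had a median of -0.017, with 6 above 0 and 6 below. RRAGD, a Rag GTPase, was at -0.12 ± 0.06, the Ragulator subunit LAMTOR3 at 0.16 ± 0.08 and FLCN, folliculin, at -0.13 ± 0.07. The lowest limma adjusted p in that list was 0.533. LAMTOR3 changed sign with the mean of all its probe sets, to -0.012. Among 17 genes of the GATOR complexes, KICSTOR and the amino acid sensors, 12 were below 0 and 5 above, and the median was -0.044. The KICSTOR subunits ITFG2 (-0.24 ± 0.11, limma adjusted p = 0.492, the lowest of this list) and KICS2 (-0.18 ± 0.10) were below 0. MIOS of GATOR2 was at 0.14 ± 0.07. ITFG2 was at -0.12 without control siRNA replicate 3, and KICS2 at -0.091 without control siRNA replicate 2. KPTN, another KICSTOR subunit, named after its value was seen, was at 0.040 ± 0.08.

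Downstream, 24 substrates and effectors of mTOR had a median of -0.018 and ran from -0.13 to 0.080, the narrowest range of the 8 lists. NDRG1, whose protein is phosphorylated by SGK1 downstream of complex 2, was at -0.13 ± 0.08 (limma adjusted p = 0.601). TFE3, a transcription factor of lysosomal genes, was at -0.11 ± 0.07 and the S6 kinase RPS6KB2 at -0.10 ± 0.08. Of 21 lysosomal and autophagy genes that TFEB activates, 12 were above 0 and 9 were not, and the median was 0.0033. They did not share a direction: the cathepsin CTSF was at 0.19 ± 0.07 (limma adjusted p = 0.391), the proton pump subunit ATP6V1B2 at -0.17 ± 0.07 and the cathepsin CTSB at -0.15 ± 0.07.

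TBC1D7 belongs by its domain to the TBC family of RAB GTPase-activating proteins, and 38 other members were measured. Their differences ran from -0.32 to 0.23 with a median of -0.037, and 16 were above 0 and 22 below. TBC1D4, the AKT substrate that controls glucose transporter traffic, was at 0.059 ± 0.02 with SDC1 siRNA and -0.18 ± 0.09 with control siRNA (SD, n = 3 each). The difference was 0.23 ± 0.07 (limma adjusted p = 0.319), and RABGAP1 was at -0.20 ± 0.07 and TBC1D24 at -0.21 ± 0.08. TBC1D2, named after its value was seen as the lowest of the 38, was at -0.32 ± 0.12. TBC1D7 223461_at, at -0.60, was lower than each of them, a difference by which it had been chosen.

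**Figure D4:**
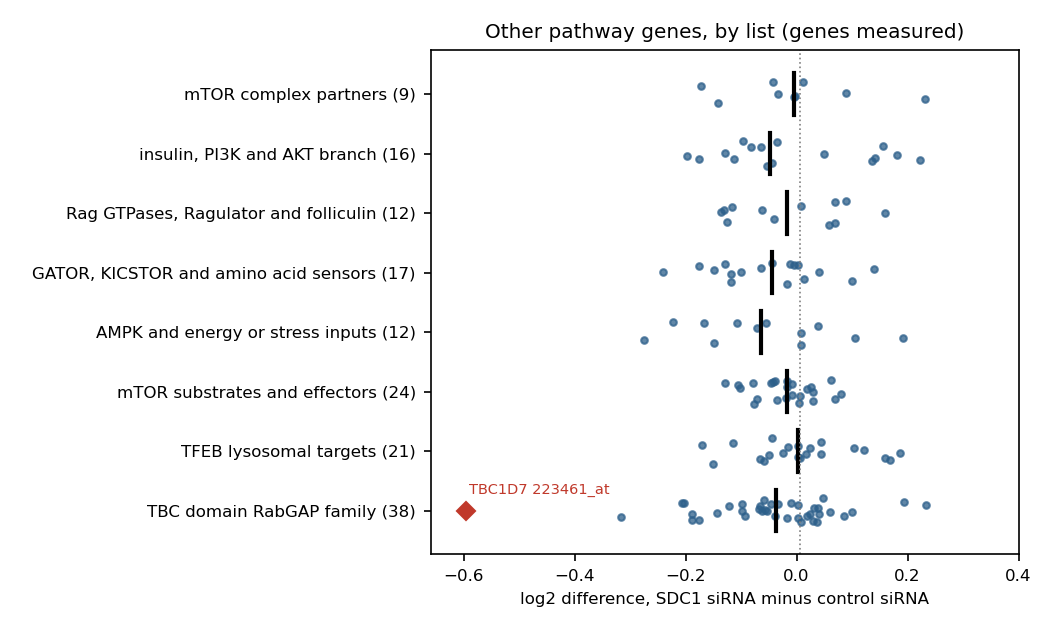
Difference of SDC1 siRNA minus control siRNA in log2 units (horizontal axis) for each measured gene of the 8 lists (dots), with bars at the list medians and a dotted line at the median of all genes. The medians lie between -0.064 and 0.0033, and the red diamond is TBC1D7 223461_at at -0.60, drawn beside its domain family and not counted in it.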

How the data were processed

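The authors deposited log2 values, for which the submitters' processing notes name RMA. The log2 scale was read from the rounding steps that the values keep. For 54675 of 54675 probe sets the 6 arrays had a median of 0 (tolerance 1e-06), a centring that no source used here describes and that leaves no absolute levels, so no filter on level was applied. By the steps, 9444 probe sets belonged to the class 8 to 16, 24720 to 4 to 8 and 20511 to the class below 4. Some may be classed too high by chance. The number of arrays limits the precision.

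Names came from the platform annotation (41091 probe sets with 1 symbol, 1801 with several, 11721 with none, 62 controls left out), updated through Entrez identifiers in RefSeq. Each gene was represented by the average of the probe sets in its brightest class. The limma package (version 3.58.1, R 4.3.3) fitted the groups given by the titles over all genes (group as the only term, Benjamini-Hochberg, 0.05), and over all probe sets for the 8 genes. The script was tested on simulated data. The 8 genes and the lists were chosen with earlier results of these data known. Genes were named by rule: all 8 and SDC1, up to 3 per list with the lowest p or any past the threshold, and the 5 closest probe sets. The alternatives were leaving out each array, a replicate block, other normalizations, array weights, a robust fit, other probe set rules, brighter classes and a threshold of 0.01.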

Additional observations from a re-analysis of the deposited data

How the results depend on the processing

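The difference of TBC1D7 223461_at stayed between -0.65 and -0.54 under every alternative run, and that of 1563839_at between -0.16 and 0.027. Of 231 values of the other 7 genes under alternatives, 0 moved by more than 1 SD of the replicates, and 26 (in 14 probe sets) changed sign. The 0 was largely fixed in advance and is not read as stability. Leaving out 1 of 3 arrays cannot move a difference that far, and the replicate block and the robust fit leave it unchanged. The count of pathway genes past the threshold was 0 in every setting, with a lowest adjusted p between 0.162 and 0.610 (limma). Few genes were called in all, so that 0 is not read as stability either. The count over all genes, 5, was 39 with array weights, 11 among genes of class 4 or higher, 3 when all probe sets of a gene were averaged, 0 with every probe set singly, 0 at an adjusted p of 0.01, and 0 to 1 with 1 array left out. Deviations from the group means in arrays of the same replicate number correlated over genes at -0.0082, -0.26 and -0.11. For arrays of unlike number the correlations ran from -0.15 to 0.21. The deviations of 3 arrays sum to 0 within a group, so these correlations are not independent of each other. All those for the same number were below 0, and with 3 arrays per group whether the numbers pair arrays was not tested. The fit with the replicate block called 0. Of 330 values of the 24 named pathway genes, 1 reversed: LAMTOR3, averaged over all its probe sets, was at -0.012. By over 1.5 times 17 values of 12 genes moved, 16 of them to smaller or turned differences. With 1 array left out, ITFG2 was at -0.12 and PRKAG1 at -0.14 (both without control siRNA replicate 3), LAMTOR3 at 0.096 (the same array), KICS2 at -0.091 (control siRNA replicate 2), TTI2 at -0.092 and MAPKAP1 at -0.091 (SDC1 siRNA replicate 1), PRKAA1 at -0.17 (SDC1 siRNA replicate 2) and RPS6KB2 at -0.052 (SDC1 siRNA replicate 3). Averaged over all probe sets, TFE3 was at -0.026, PIK3CD at 0.077, ITFG2 at -0.081, MIOS at 0.088 and PRKAB2 at -0.25. GFOD1, next to TBC1D7, lay between -0.042 and 0.11 with 1 array left out, and reversed to -0.040 averaged over all its probe sets and to -0.13 without _x_at and _s_at probe sets. The cause was not tested.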
